A study of Oryza sativa with 12 samples.

Results

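Heat shock proteins and heat stress factors were followed in the stem base of rice seedlings. The members were the nuclear genes whose symbol or synonym, after a leading Os, starts with HSP and digits or with HSFA, HSFB or HSFC and a digit, and each was read from its brightest probe set that matches no other gene. Of 49 genes with such a name, 43 had a probe set of their own, out of 17905 genes with one on the array. They were 19 small heat shock proteins, whose names carry an approximate mass between 10 and 39 kilodaltons, 4 large ones (HSP101, HSP81-1, HSP81-2 and HSP81-3) and 20 factors (12 of class HSFA, 5 of class HSFB and 3 of class HSFC). HSP16.9C, HSP18.9, HSP19.0, HSFA6A, HSFB4C and HSFC2B had no probe set of their own, and no HSP70 gene met the name rule.

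RNA came from stem bases of 8-day-old seedlings of the cultivar Taichung 65, the part of the shoot from which crown roots emerge. The groups were crl1, the crown rootless 1 mutant, and wild type, each just before indole-3-acetic acid (an auxin, brought to 1e-06 M in the liquid medium), called 0 h, and at 2 h and 4 h after it. The study set out to find auxin-responsive genes that depend on CRL1, a transcription factor needed for crown roots, whose own level was not analysed here. All groups were transferred on day 7 and grown at 26 °C under 12 h of light, with no heat treatment named in the labels. The transfer was shared by all groups, and its effect was not tested. Each extract was made from 20 stem bases. There were 2 arrays per group, 12 in all, 1 from each of 2 independent repetitions, and p-values measure only the spread between these arrays. Auxin-free plants kept to 2 h or 4 h were not analysed here, so in every comparison with 0 h the auxin and the hours that passed cannot be told apart.

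Small heat shock proteins hold unfolding proteins in a soluble state, HSP101 pulls them out of aggregates, and the HSP81 genes encode HSP90 chaperones, which help kinases and receptors to mature. Heat stress factors bind heat stress elements in the promoters of such genes. Class A factors activate transcription, whereas class B and class C factors lack the activator motif of class A, and several class B factors act as repressors in Arabidopsis. Some chaperones, above all HSP90, are made at ordinary temperatures, while many small heat shock proteins are known as nearly silent until heat stress.

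The array of wild type 2 h repetition 2 stood apart and touches many of the results. In 1 set of GAPDH control probes its 3' to 5' signal ratio, a sign of RNA quality, was 35.6, against 3.08 to 17.3 on the other 11 arrays. In another set it was 23.0, within the 1.43 to 32.3 of the others. It also had the highest summed signal of 8 photosynthetic leaf markers (25636, against 12066 to 18334 on the other 11 arrays) and of 11 markers of dividing cells (13511, against 6383 to 9105). Of the 8 leaf markers 7 were above background on every array, as were both shoot apex markers, and 5 to 8 of 9 root markers were. The median signal of rice probe sets ran from 9.39 to 12.7 over the 12 arrays.

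Most members were measurable without heat. Background was taken, array by array, as the 95th percentile over 64 reporter probe sets for genes that rice lacks. It ran from 5.83 to 18.5. On all 12 arrays, 12 of 19 small heat shock proteins, 4 of 4 large ones and 14 of 20 factors lay above it, and single arrays held 33 to 40 of the 43 members above it. HSP16.6 and HSP21.9 were above background on 0 arrays and HSP26.7, a small heat shock protein of plastids, on 2 of 12. These 3 did not reach the median signal of their array on at least 2 arrays and were not tested, which left 40 members (16 small, 4 large and 20 factors) among 32524 tested probe sets. Among the tested members, HSFA2A had signals of 0.475 to 12.9. HSP23.2, a small heat shock protein of the endoplasmic reticulum, had 0.845 to 20.2. Each was above background on 2 of 12 arrays, so differences in both lie mostly within background.

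At 4 h against 0 h, both genotypes together, 1 of 40 tested members passed the test, against 0.455% of all tested probe sets. An unadjusted p under 0.05 was met by 6 members (and by 8.83% of all probe sets), 5 of them factors. The member called was HSFA3 (LOC4329526, chromosome 2), a class A factor that in Arabidopsis acts downstream of DREB2A. Its signals were 36.5 and 51.3 in crl1 and 62.4 and 56.2 in wild type at 4 h, against 15.5 and 21.0 in crl1 and 18.7 and 24.9 in wild type at 0 h. All 4 arrays at 4 h lay above all 4 at 0 h, and the arrays at 2 h, at 28.6 and 26.1 in crl1 and 21.4 and 15.3 in wild type, lay below all of those at 4 h. HSFA3 rose 2.56-fold at 4 h (log2 fold change 1.36 ± 0.23 SE, limma adjusted p = 0.0348, and 0.0255 with repetition as a block), by 1.18 to 1.74 log2 units in the 4 pairs of genotype and repetition. Taken alone, the log2 fold change was 1.26 in crl1 (adjusted p = 0.395) and 1.46 in wild type (adjusted p = 0.223). The response in crl1 less that in wild type was -0.19 (adjusted p = 0.991). The call was lost when each array was centred on its median (adjusted p = 0.0557) and without the filter (0.0625). It was also lost in 10 of 12 fits that left out 1 array, up to 0.183 without wild type 4 h repetition 1. The log2 fold change lay between 1.24 and 1.48 in those 12 fits and was 0.90 with a pseudocount of 16. In bulk tissue, more RNA per cell and more cells of a type that makes it cannot be told apart. Of 7 tested leaf markers 1, the photosystem subunit PSB28, was lower at 4 h (log2 fold change -0.87, limma adjusted p = 0.0349). The summed signal of the 8 was 12066 to 14446 in crl1 and 16648 to 17891 in wild type at 4 h, against 14055 to 18334 in crl1 and 15086 to 16742 in wild type at 0 h. Of 8 tested root markers 0 passed the limma test at 4 h and 5 had an unadjusted p under 0.05. The summed signal of all 9 was 1727 to 2198 in crl1 and 2126 to 2935 in wild type at 4 h, against 3577 to 4052 in crl1 and 2206 to 2581 in wild type at 0 h. The part of tissue make-up in the HSFA3 result was not tested.

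Both measured HSFC1 genes were also higher at 4 h on every array within each genotype. HSFC1B (LOC4324158, chromosome 1), which acts in salt and osmotic stress in rice, had 137 and 79.4 in crl1 and 287 and 77.3 in wild type at 4 h, against 66.9 and 13.8 in crl1 and 28.7 and 16.9 in wild type at 0 h. Repetition 1 was above repetition 2 in each of the 6 groups. The log2 fold change was 2.27 ± 0.67 SE (limma adjusted p = 0.273). With repetition as a block the adjusted p was 0.00653, and in wild type alone 0.0408 (log2 fold change 2.76, 0.569 without the block). The wild type log2 fold change, fitted with no block, ran from 1.81 without wild type 4 h repetition 1 to 3.71 without wild type 4 h repetition 2. In wild type that made 1 of 40 members, against 0.135% of all probe sets. Of the 40 tested members, 2 passed the blocked test in both genotypes together, against 0.802% of all probe sets. At 2 h the signals of HSFC1B were 52.5 and 14.3 in crl1 and 62.2 and 14.1 in wild type, which overlapped with 0 h in both genotypes. HSFC1A had 37.0 and 32.7 in crl1 and 31.4 and 39.6 in wild type at 4 h, against 20.3 and 25.1 in crl1 and 19.4 and 21.5 in wild type at 0 h. Its groups did not overlap, with a log2 fold change of 0.70 ± 0.21 SE that missed the threshold (adjusted p = 0.289).

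The factors HSFC2A, HSFB1 and HSFB2C were lower on every 4 h array than on every 0 h array of the same genotype. HSFC2A had 137 and 169 in crl1 and 199 and 277 in wild type at 4 h, against 436 and 316 in crl1 and 447 and 282 in wild type at 0 h. The log2 fold change was -0.94 ± 0.29 SE (limma adjusted p = 0.311). Its 2 h arrays went both ways, with repetition 1 at 207 in crl1 and 203 in wild type and repetition 2 at 433 in crl1 and 391 in wild type. HSFB1, a repressor of heat-inducible genes in Arabidopsis, had 279.9 and 219.6 in crl1 and 282 and 233 in wild type at 4 h, against 565 and 339 in crl1 and 401 and 293 in wild type at 0 h. Its log2 fold change was -0.62 ± 0.19 SE (adjusted p = 0.328, and 0.0936 with the block). HSFB2C had 83.2 and 141 in crl1 and 75.6 and 155 in wild type at 4 h, against 205 and 142 in crl1 and 159.6 and 172 in wild type at 0 h. The fitted log2 fold change was -0.63 ± 0.32 SE (adjusted p = 0.627), and its other 2 probe sets had -0.78 and 0.20. These 3 differences were below zero in 4 of 4 pairs, as the order of the arrays requires, and none passed the threshold. For HSFB2C the crl1 groups were barely apart, with 141.4 at 4 h and 141.8 at 0 h in repetition 2. Groups did not overlap within each genotype, in the same direction, for 6 of 40 members at 4 h, all 6 of them factors, against 11.6% of all probe sets. Signals were higher at 4 h in all 4 pairs for 8 members, against 15.0% of all probe sets, and lower in all 4 for 6 members, against 9.38%.

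**Figure D1:**
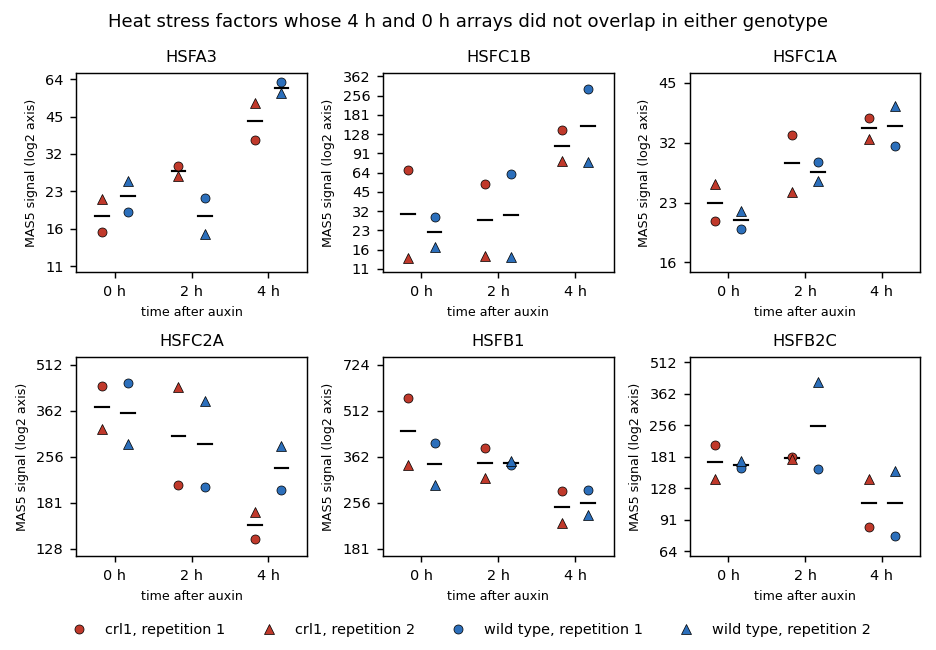
MAS5 signal on a log2 axis against hours after auxin for HSFA3, HSFC1B, HSFC1A, HSFC2A, HSFB1 and HSFB2C, with 1 point per array (red crl1, blue wild type, circles repetition 1, triangles repetition 2) and a bar at each group's mean of log2 signals. HSFA3 reached 36.5 to 62.4 at 4 h and lay between 15.3 and 28.6 on all earlier arrays, while HSFC1B shows repetition 1 above repetition 2 in every group.

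At 2 h against 0 h, 0 of 40 members passed the limma test, against 0.126% of all probe sets, and 3 members (6.55% of all probe sets) had an unadjusted p under 0.05. Without wild type 2 h repetition 1, 1 member passed (HSFB2A), as did 1379 of all probe sets. The lowest adjusted p was 0.706, for the cytosolic small heat shock protein HSP17.9B. It had 612 and 526 in crl1 and 716 and 799 in wild type at 2 h, against 559 and 406 in crl1 and 585 and 448 in wild type at 0 h. It was higher at 2 h in 4 of 4 pairs (3 members were, against 9.71% of all probe sets), with a log2 fold change of 0.41 ± 0.15 SE. HSFA5, which restrains class A4 factors in Arabidopsis, had 62.5 and 47.6 in crl1 and 70.6 and 53.7 in wild type at 2 h, against 73.2 and 72.5 in crl1 and 85.4 and 90.4 in wild type at 0 h. It was the only member whose groups did not overlap within each genotype, in the same direction, against 6.44% of all probe sets, and the only one lower in all 4 pairs, against 7.07%. It had a log2 fold change of -0.46 ± 0.19 SE (adjusted p = 0.725). At 4 h HSFA5 was at 87.7 and 67.0 in crl1 and 97.0 and 68.5 in wild type, which overlapped with 0 h.

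The 3 factors with the largest fitted differences at 2 h had higher signals on both crl1 arrays than on either at 0 h. For HSFB2B all of these crl1 signals lay within background, so their order carries no weight. The wild type arrays went both ways for the 3 factors, and none passed the test. HSFB2A had 92.9 and 129 in crl1 and 78.4 and 317 in wild type at 2 h, against 69.7 and 49.7 in crl1 and 107 and 107 in wild type at 0 h. The array that stood apart held the 317, while the other wild type array at 2 h lay below both at 0 h. For HSFB2A the log2 fold change was 0.73 ± 0.37 SE (limma adjusted p = 0.796). HSFA2B had 11.9 and 20.6 in crl1 and 9.38 and 24.1 in wild type at 2 h, against 8.22 and 4.64 in crl1 and 11.8 and 16.2 in wild type at 0 h. The difference came to a log2 fold change of 0.73 ± 0.40 SE with 9 of 12 arrays above background. Both crl1 arrays at 0 h were below background. Set against background there, HSFA2B at 2 h in crl1 was 1.36-fold higher. The 2 h signals were themselves close to the background of their own arrays, 11.5 and 16.9, so this is no firm lower bound. HSFB2B, which represses heat-inducible genes in Arabidopsis, had 9.76 and 8.89 in crl1 and 6.37 and 21.0 in wild type at 2 h, against 2.85 and 7.55 in crl1 and 9.07 and 10.9 in wild type at 0 h. The difference came to a log2 fold change of 0.61 ± 0.51 SE with 6 of 12 arrays above background. In crl1 alone the log2 fold changes of HSFB2A, HSFA2B and HSFB2B were 0.89 ± 0.52 SE, 1.34 ± 0.57 SE and 1.00 ± 0.73 SE (lowest adjusted p = 0.966), and in wild type alone 0.56, 0.12 and 0.22. HSFA1, whose relatives switch on the heat response in tomato and Arabidopsis, showed log2 fold changes of -0.11 ± 0.18 SE at 2 h and 0.03 ± 0.18 SE at 4 h, with all 12 signals between 280.4 and 519. HSFA4D, the gene of the rice spotted-leaf mutant spl7, lay between 15.7 and 29.5 on the 12 arrays and HSFA4B between 81.4 and 123.

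No small heat shock protein passed the limma test at 4 h, where 1 of 16 had an unadjusted p under 0.05. That member was HSP18.0, with 325 and 299.6 in crl1 and 365 and 438 in wild type at 4 h, against 308 and 262 in crl1 and 164 and 283 in wild type at 0 h. It had a log2 fold change of 0.51 ± 0.23 SE (adjusted p = 0.545), and its other 2 probe sets gave 0.27 and 0.10. HSP18.8 had 499 and 665 in crl1 and 623 and 962 in wild type at 4 h, against 819 and 1485 in crl1 and 691 and 966 in wild type at 0 h. It was lower in 4 of 4 pairs at 4 h, with a log2 fold change of -0.51 ± 0.25 SE (adjusted p = 0.606) and -0.59 ± 0.25 SE at 2 h (adjusted p = 0.751). The largest fitted differences among small members at 4 h were -0.68 in HSP24.1, a mitochondrial one, -0.62 in HSP18.1 and -0.60 in HSP17.4, both cytosolic, with adjusted p = 0.803, 0.703 and 0.772. HSP17.4 had 41.6 and 32.1 in crl1 and 9.72 and 32.4 in wild type at 4 h, against 59.6 and 31.1 in crl1 and 28.9 and 41.9 in wild type at 0 h. Wild type 4 h repetition 1 was the lowest of the 12 and the crl1 arrays overlapped. At 2 h the largest were 0.71 in HSP17.4 and 0.66 in HSP16.0, with limma adjusted p = 0.846 and 0.85. Both had their highest signal of 12 on the wild type array that stood apart (122 and 55.7).

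Of the large heat shock proteins, the HSP90 genes HSP81-2 and HSP81-3 were higher at 4 h in 4 of 4 pairs, without passing the test. HSP81-2 had 3750 and 4889 in crl1 and 4849 and 5347 in wild type at 4 h, against 3174 and 4386 in crl1 and 3576 and 4600 in wild type at 0 h. The log2 fold change was 0.26 ± 0.23 SE (limma adjusted p = 0.82). HSP81-3 had 5200 and 6037 in crl1 and 6990 and 6537 in wild type at 4 h, against 3735 and 5625 in crl1 and 3907 and 5168 in wild type at 0 h. Its log2 fold change was 0.44 ± 0.25 SE (adjusted p = 0.676). Bright other probe sets of HSP81-3 had 0.33 and 0.33, while a dim one, at signals of 4.7 to 18.4 around background, had -0.28. In both genes the crl1 arrays overlapped. The 2 genes lie within 4 genes of each other on chromosome 9, and the probe set of HSP81-3 is of a kind that can also bind related transcripts. The same limit holds for the probe sets used for HSP18.1, HSP18.6, HSP18.8, HSP26.2, HSFA2A and HSFB4B. HSP81-1 had a log2 fold change of -0.04 ± 0.28 SE. HSP101, the disaggregase needed for acquired heat tolerance in Arabidopsis and maize, had 30.5 and 40.4 in crl1 and 12.0 and 29.6 in wild type at 4 h, against 41.4 and 48.2 in crl1 and 24.5 and 49.4 in wild type at 0 h. It was lower in 4 of 4 pairs at a log2 fold change of -0.61 ± 0.45 SE (adjusted p = 0.763), and in wild type the groups overlapped. At 2 h the fitted log2 fold changes of the 4 genes lay between 0.22 and 0.39, and without wild type 2 h repetition 2 those of HSP101 and HSP81-1 were -0.13 and -0.10. A dimmer probe set of HSP81-1 had 407 and 438 in crl1 and 319 and 530.1 in wild type at 2 h, against 323 and 193 in crl1 and 161 and 206.5 in wild type at 0 h. It was higher in 4 of 4 pairs, with a log2 fold change of 0.97 (limma adjusted p = 0.374).

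The array that stood apart held the highest of the 12 signals for 19 of 40 tested members, against 20.2% of all tested probe sets. Of members with a mean signal of at least 1000 it held the highest for 4 of 4, against 44.2% of 1746 such probe sets. With quantile normalization it was highest for 18 of 40 members, against 22.4% of all. The 19 members were 9 of 16 small heat shock proteins, 4 of 4 large ones and 6 of 20 factors. Each other array held the highest signal of 0 to 5 members. HSP81-1 was at 5010 there, against 1757 to 2996 on the other 11 arrays. HSP24.1 was at 382, against 35.5 to 192. Measured as a deviation from each gene's mean over the 12 arrays, the median member stood at 0.70 log2 units there for small heat shock proteins, 0.93 for large ones and 0.01 for factors. The median of all genes tested was 0.02. On the other wild type arrays the small heat shock proteins lay on both sides of 0, at -0.41 and 0.25 in repetitions 1 and 2 at 0 h, -0.01 in repetition 1 at 2 h, and -0.71 and 0.12 in repetitions 1 and 2 at 4 h.

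**Figure D2:**
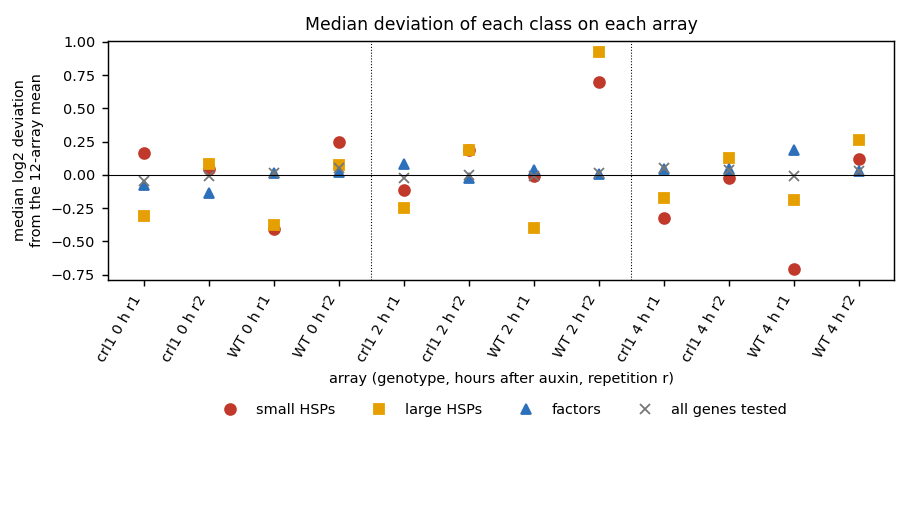
Median log2 deviation from the 12-array mean for the 16 small heat shock proteins (circles), 4 large ones (squares), 20 factors (triangles) and all genes tested (crosses) on each array, in order of time with crl1 before wild type (WT), and r for repetition. Small and large heat shock proteins stand at 0.70 and 0.93 on WT 2 h r2, while the factors there are at 0.01.

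The 2 repetitions were set against each other after the values had been seen. For repetition 2 against repetition 1, 0 of 40 members passed the limma test, against 0.00307% of all probe sets, but 21 had an unadjusted p under 0.05, against 20.1% of all. Repetition 2 lay above repetition 1 in all 6 groups for 9 members, against 7.9% of all probe sets: HSP101, HSP81-1, HSP81-2, HSP16.0, HSP16.9A, HSP17.7, HSP17.9, HSP24.1 and HSFB4B. Repetition 2 lay below repetition 1 in all 6 groups for HSFC1B alone, against 5.63%. The lowest adjusted p was 0.0665, for HSFC1B (log2 fold change -1.62 ± 0.23 SE), followed by 0.0811 for HSP16.9A (0.82 ± 0.14 SE) and 0.0876 for HSP24.1 (1.31 ± 0.24 SE). HSP101 had 0.95 ± 0.23 SE, with repetition 2 at 48.2, 69.9 and 40.4 in crl1 at 0 h, 2 h and 4 h, against 41.4, 44.2 and 30.5 in repetition 1. Without wild type 2 h repetition 2, 0 members passed as well and the lowest adjusted p was 0.063.

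**Figure D3:**
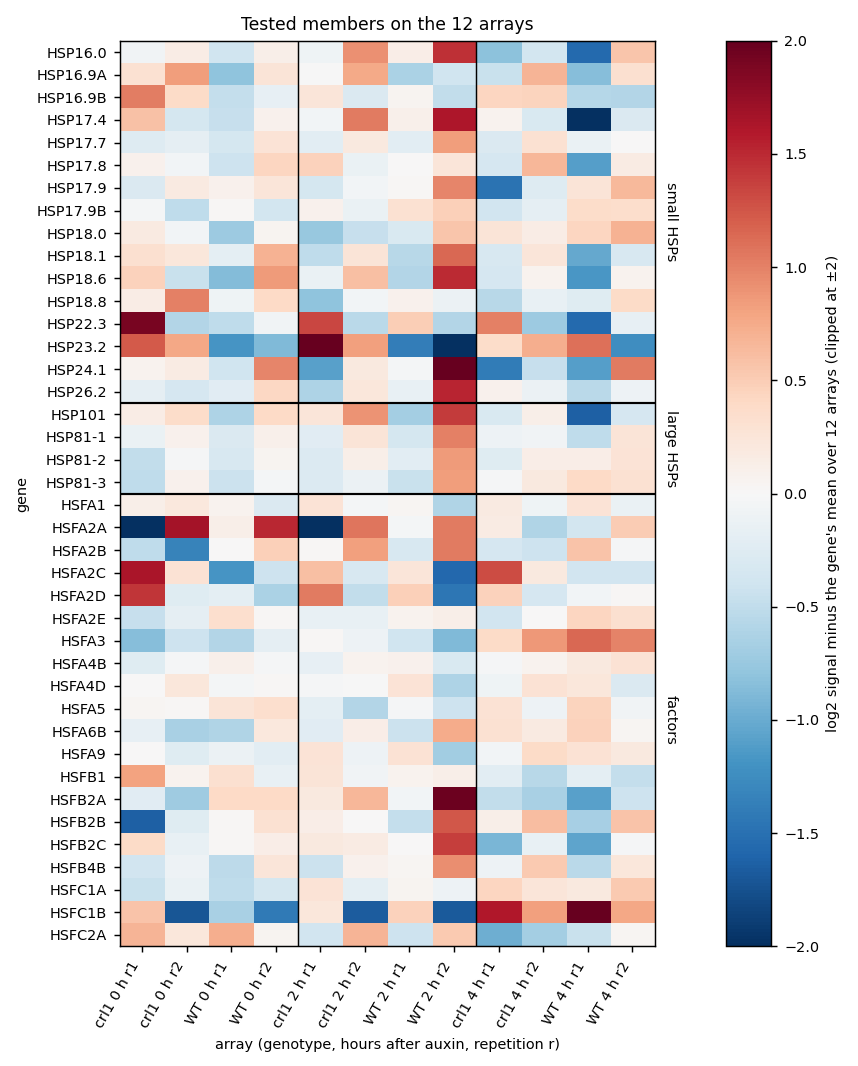
Colour map of the 40 tested members (down the page, by class) on the 12 arrays (across, in order of time, crl1 before WT), where red is a log2 signal above the gene's mean over 12 arrays and blue one below it, clipped at 2. The column of WT 2 h r2 is red for all 4 large heat shock proteins, and HSFA3 and HSFC1B are red on all 4 arrays at 4 h.

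For crl1 against wild type over all 3 times, 0 of 40 members passed the limma test, against 1.38% of all probe sets, and 7 members (16.6% of all probe sets) had an unadjusted p under 0.05. With repetition as a block 3 of 40 passed, against 3.19% of all probe sets, and these were HSP17.9, HSP16.9A and the gene named HSFA2C, whose probe set may not measure a heat stress factor. Without wild type 2 h repetition 1, which leaves the array that stood apart alone in its group, 6 members passed, as did 3675 of all probe sets. Signals were higher in crl1 at each time in each repetition for 3 members, against 6.0% of all probe sets, and lower for 5, against 6.01%. Root markers moved with genotype too. Of 9, 8 were tested, and OsPIN2, OsRAA1 and IRT1 were lower in crl1 (log2 fold changes -1.79, -1.28 and -1.55). In crl1 at 0 h and 2 h the signals of OsPIN2 and IRT1 lay within background. Of the 8 tested markers, 4 had a log2 fold change above 0, without passing the test. At 0 h NAS1 had 1293 and 1113 in crl1 against 340.5 and 610.9 in wild type. NAS2 had 1320 and 982 in crl1 against 471 and 783 in wild type. The summed signal of the 9 was 3577 to 4052 in crl1 against 2206 to 2581 in wild type at 0 h, 3051 to 3468 against 2125 to 2521 at 2 h, and 1727 to 2198 against 2126 to 2935 at 4 h. OsPIN2, a root auxin carrier, was at 4.53 to 12.9 in crl1 against 22.8 to 39.8 in wild type, and OsPT11 was at 7.81 or lower on all 12 arrays. Of the 8 leaf markers OsrbcS was lower in crl1 (log2 fold change -0.66, limma adjusted p = 0.0297). Their sum was 14055 to 18334 in crl1 against 15086 to 16742 in wild type at 0 h, 15054 to 16894 against 15035 to 25636 at 2 h, and 12066 to 14446 against 16648 to 17891 at 4 h. The part of these tissue differences in the values of the members was not tested.

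HSP17.9 (LOC4332357, chromosome 3), a cytosolic class I small heat shock protein, had lower signals in crl1 in 6 of 6 pairs. Its signals were 1017 and 1413 in crl1 against 1329 and 1472 in wild type at 0 h and 982 and 1203 against 1267 and 2466 at 2 h. At 4 h, HSP17.9 had 446 and 1048 in crl1 against 1486 and 1956 in wild type. The groups overlapped at 0 h and were apart at 2 h and 4 h, with crl1 4 h repetition 1 the lowest of the 12. The log2 fold change over all times was -0.75 ± 0.23 SE (limma adjusted p = 0.147, and 0.0283 with repetition as a block). At 4 h alone it was -1.32 ± 0.40 SE (adjusted p = 0.449). HSP17.9B had 559 and 406 in crl1 against 585 and 448 in wild type at 0 h and 612 and 526 against 716 and 799 at 2 h. At 4 h, HSP17.9B had 441 and 509.6 in crl1 against 742 and 736 in wild type. It was lower in crl1 in 6 of 6 pairs, apart at 2 h and 4 h, with a log2 fold change of -0.39 ± 0.13 SE (adjusted p = 0.168, blocked 0.105).

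HSP16.9A and HSP16.9B, also cytosolic class I proteins, lay the other way, higher in crl1 in 6 of 6 pairs. HSP16.9A had 361 and 522 in crl1 against 167 and 349 in wild type at 0 h and 292 and 494 against 188 and 222 at 2 h. At 4 h, HSP16.9A had 214 and 467 in crl1 against 162 and 364 in wild type. Repetition 2 exceeded repetition 1 in every group, and crl1 and wild type were apart at 0 h and 2 h and overlapped at 4 h. Its log2 fold change was 0.71 ± 0.29 SE (limma adjusted p = 0.251, and 0.03 with repetition as a block). HSP16.9B had 39.3 and 25.3 in crl1 against 13.8 and 17.2 in wild type at 0 h and 23.0 and 15.8 against 19.98 and 13.8 at 2 h. In repetition 2 at 2 h both signals of HSP16.9B lay below background (16.9 in crl1 and 18.5 in wild type), so the order of that pair carries no weight. At 4 h, HSP16.9B had 26.0 and 26.2 in crl1 against 13.1 and 12.8 in wild type. Its groups were apart at 0 h and 4 h and overlapped at 2 h, with a log2 fold change of 0.75 ± 0.22 SE (adjusted p = 0.127, blocked 0.0776). HSP17.9B, HSP16.9A and HSP16.9B are neighbours: with HSP16.6 and HSP16.9C they form a run of 5 genes on chromosome 1 in the gene table. A second run, of HSP17.9, HSP17.4, HSP18.1 and HSP17.7 within 8 genes on chromosome 3, had log2 fold changes in crl1 of -0.75, 0.33, 0.08 and -0.14.

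Larger fitted differences in other small members rested on fewer arrays. HSP23.2 had 11.0 and 7.98 in crl1 against 2.07 and 2.54 in wild type at 0 h and 20.2 and 8.24 against 1.79 and 0.845 at 2 h. At 4 h, HSP23.2 had 5.98 and 7.72 in crl1 against 9.96 and 1.98 in wild type. In these signals, mostly within background, the log2 fold change was 2.01 ± 0.56 SE (limma adjusted p = 0.114). HSP24.1 had 97.8 and 104 in crl1 against 70.5 and 184 in wild type at 0 h and 44.1 and 106 against 91.2 and 382 at 2 h. At 4 h, HSP24.1 had 35.5 and 67.9 in crl1 against 43.5 and 192 in wild type. It was lower in crl1 in 5 of 6 pairs, with a log2 fold change of -0.84 ± 0.47 SE (adjusted p = 0.395, blocked 0.0877). HSP22.3 had 382 and 68.6 in crl1 against 72.1 and 97.2 in wild type at 0 h and 259.6 and 70.4 against 145 and 68.4 at 2 h. At 4 h, HSP22.3 had 207 and 61.9 in crl1 against 35.0 and 91.5 in wild type. At each time crl1 repetition 1 was above both wild type arrays and crl1 repetition 2 was not, with a log2 fold change of 0.80 ± 0.51 SE (adjusted p = 0.455).

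Among the factors, HSFA2E (LOC4334418, chromosome 3) was the only member whose crl1 arrays lay on the same side of both wild type arrays at each of the 3 times, against 5.97% of all probe sets. It had 171 and 207 in crl1 against 296 and 239 in wild type at 0 h and 211 and 212 against 247 and 255 at 2 h. At 4 h, HSFA2E had 179 and 237 in crl1 against 317 and 292 in wild type. The crl1 arrays were the lower ones, with a log2 fold change of -0.44 ± 0.12 SE (limma adjusted p = 0.115, blocked 0.0762). The 6 pairs ran from -0.82 to -0.21. HSFA2C had 786 and 309 in crl1 against 112 and 192 in wild type at 0 h and 388 and 203 against 302 and 85.2 at 2 h. At 4 h, HSFA2C had 629 and 289.7 in crl1 against 194 and 194 in wild type. It was higher in crl1 in 6 of 6 pairs and overlapped at 2 h, with a log2 fold change of 1.23 ± 0.36 SE (adjusted p = 0.132, blocked 0.0494), but its other probe set gave -0.10. HSFA2D was higher in crl1 in 5 of 6 pairs (log2 fold change 0.62 ± 0.40 SE, adjusted p = 0.458), and its other probe set gave -0.35. The gene table lists acireductone dioxygenase names, ARD1 and ARD2, among the synonyms of these 2 genes and marks HSFA2C as a transcribed pseudogene, so the probe sets of both may not measure heat stress factors. HSFA2A, a relative of the factor that sustains the heat response in Arabidopsis, had -0.92 (adjusted p = 0.636), mostly within background.

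No large heat shock protein had an unadjusted p under 0.05 in crl1 against wild type. HSP81-2 was lower in crl1 in 6 of 6 pairs. It had 3174 and 4386 in crl1 against 3576 and 4600 in wild type at 0 h and 3686 and 4822 against 3822 and 8024 at 2 h. At 4 h, HSP81-2 had 3750 and 4889 in crl1 against 4849 and 5347 in wild type. Its log2 fold change was -0.25 ± 0.19 SE (limma adjusted p = 0.528). Leaving out wild type 2 h repetition 2 made it -0.08. HSP81-3 had -0.21 ± 0.21 SE (adjusted p = 0.64), and its other 3 tested probe sets gave -0.79, -0.41 and -0.47. HSP81-1 had -0.07 ± 0.23 SE (adjusted p = 0.909). HSP101 had 41.4 and 48.2 in crl1 against 24.5 and 49.4 in wild type at 0 h and 44.2 and 69.9 against 23.3 and 98.9 at 2 h. At 4 h, HSP101 had 30.5 and 40.4 in crl1 against 12.0 and 29.6 in wild type. Its log2 fold change was 0.49 ± 0.37 SE (adjusted p = 0.538), with crl1 above wild type in 4 of 6 pairs and the groups apart at 4 h.

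**Figure D4:**
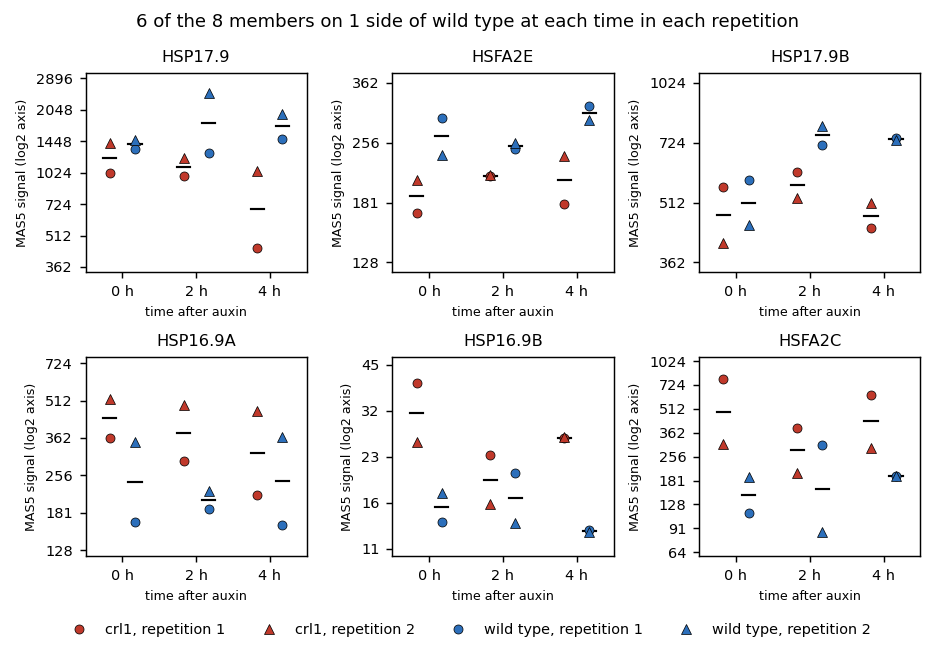
MAS5 signal on a log2 axis against hours after auxin for HSP17.9, HSFA2E, HSP17.9B, HSP16.9A, HSP16.9B and HSFA2C, with 1 point per array (red crl1, blue wild type, circles repetition 1, triangles repetition 2) and a bar at each group's mean of log2 signals. In the upper 3 genes crl1 lay below wild type in 6 of 6 pairs of time and repetition, and in the lower 3 above it. For HSP16.9B the pair of 2 h repetition 2 lay within background.

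Single times gave no calls among the members. For crl1 against wild type, 0 of 40 passed the limma test at 0 h, 2 h and 4 h (against 0.101%, 0.0738% and 0.0799% of all probe sets), with 3, 2 and 4 members at an unadjusted p under 0.05, as were 9.05%, 11.0% and 7.36% of all probe sets. Among the members the lowest adjusted p was 0.452 at 0 h (HSFA2C), 0.355 at 2 h (HSP23.2) and 0.449 at 4 h (HSP17.9). Without wild type 2 h repetition 1, 6 members passed for crl1 against wild type at 2 h, as did 4761 of all probe sets. For 2 h against 0 h in wild type 4 then passed (HSP26.2, HSP81-2, HSP81-3 and HSFB2A), as did 3376 of all. The crl1 and wild type arrays did not overlap for 10 members at 0 h, 7 at 2 h and 12 at 4 h, against 42.6%, 37.4% and 44.0% of all probe sets. Within crl1 0 members passed at 2 h and 4 h, against 0.04% and 0.0154% of all probe sets and with 2 and 4 members at an unadjusted p under 0.05, as were 5.10% and 6.16% of all. Within wild type 0 passed at 2 h and 4 h, against 0.00307% and 0.0184%, with 1 and 6 members at an unadjusted p under 0.05, as were 7.80% and 6.89% of all. The difference between the responses of crl1 and wild type passed for 0 of 32524 probe sets at either time, with 1831 at 2 h and 1090 at 4 h at an unadjusted p under 0.05. For this difference the members' lowest adjusted p was 0.869 at 2 h, in HSP18.0 (-1.13 log2 units), and 0.99 at 4 h, in HSP17.9 (-1.09), with 1 and 0 members at an unadjusted p under 0.05. The other probe sets of HSP18.0 went the other way, higher at 2 h in crl1 and lower in wild type. In crl1 they had 183.5 and 201, and 189 and 220, at 2 h, against 95.7 and 192, and 150.5 and 173, at 0 h. In wild type they had 195 and 143, and 159.5 and 189, at 2 h, against 356 and 309, and 176 and 201, at 0 h.

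How the members of the 3 classes lay is described here over all 43. A difference between the classes was not tested. At 4 h against 0 h, 5 of 19 small heat shock proteins, 2 of 4 large ones and 12 of 20 factors had a log2 fold change above 0, against 54.7% of all genes. The class medians were -0.26, 0.11 and 0.13 against 0.03 for all genes. Centring each array on its median moved the median of all genes tested by -0.12 at 4 h, -0.16 at 2 h and -0.10 in crl1. At 4 h the median of small heat shock proteins was then -0.38 and that of factors 0.01, while the median of large ones turned to -0.01, and to -0.07 with quantile normalization. At 2 h the medians were 0.08 for small heat shock proteins, 0.27 for large ones and 0.06 for factors, against -0.02 for all genes. Above 0 were 11 of 19, 4 of 4 and 11 of 20 members, against 47.2% of all genes. With each array centred, the medians were -0.09, 0.11 and -0.10, so that small heat shock proteins and factors turned sign. Without wild type 2 h repetition 2 they were -0.09, -0.10 and 0.09. In crl1 against wild type the medians were 0.07, -0.14 and -0.12, against 0.00 for all genes. Above 0 were 10 of 19, 1 of 4 and 7 of 20 members, against 50.5% of all genes. Over the 16 tested small heat shock proteins, without the 3 that were not tested, the median was -0.01 and 8 were above 0. The small heat shock proteins turned to -0.03 there under centring and under quantile normalization. Without wild type 2 h repetition 2 the 3 medians were 0.26, 0.08 and -0.03.

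Probe sets of the same gene were compared in crl1 against wild type over all times and in 2 h and 4 h against 0 h, both genotypes together. Of 14 members with several probe sets of their own, 10 had a second one tested. In 8 of these another probe set differed by 0.5 log2 units or more from the one used. None of those other probe sets passed the limma test. Beside the differences given for HSFA2C, HSFA2D, HSFB2C, HSP81-1 and HSP81-3, another probe set of HSFB2C had -1.01 in crl1, against -0.16 in the one used. For HSFB4B the other probe set had -0.85 in crl1 and 0.79 at 4 h, against -0.13 and 0.23 in the one used. For HSP18.6, at signals of 1.44 to 25.0, it had 0.89 in crl1 and -1.32 at 4 h, against 0.07 and -0.34. At 2 h HSP18.1 had 0.34 and HSFA2C 0.29 in the other probe set, against -0.18 and -0.34. At 4 h HSFA2D had -0.66, against -0.06.

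**Figure D5:**
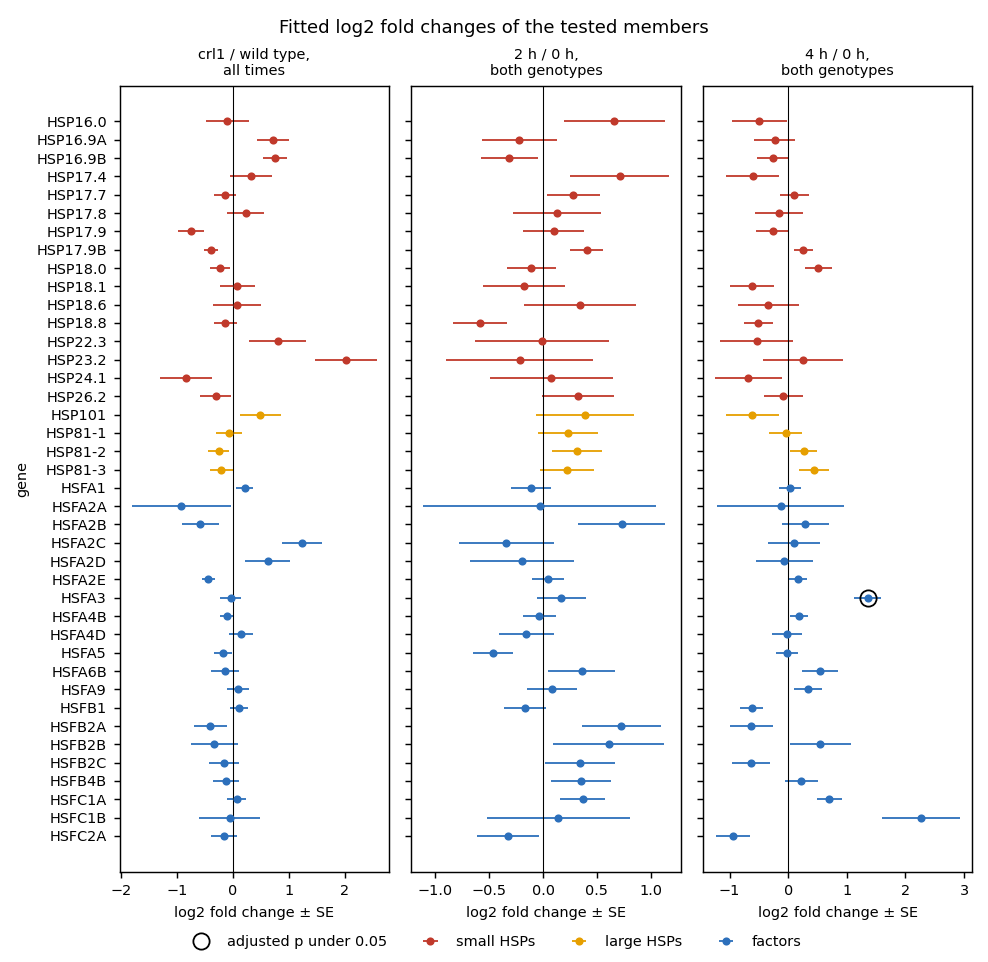
Fitted log2 fold change with its standard error for the 40 tested members (small heat shock proteins red, large ones orange, factors blue) in crl1 against wild type over all times, 2 h against 0 h and 4 h against 0 h. The ring marks HSFA3, at 1.36 in 4 h against 0 h, the only member with an adjusted p under 0.05 in these 3 comparisons.

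A wider list of chaperones and heat response genes gave 0 calls among 39 tested of 41 in the 3 comparisons by limma. Of all probe sets 1.38% were called in crl1, 0.126% at 2 h and 0.455% at 4 h. An unadjusted p under 0.05 was met by 3 genes in crl1, 1 at 2 h and 5 at 4 h. Of all probe sets 16.6%, 6.55% and 8.83% met it. The list holds protein disulfide isomerases, DNAJ co-chaperones, chaperone partners of HSP90 such as OsSGT1 and OsRAR1, Clp proteins, ubiquitin and ascorbate peroxidase genes, and the DREB2 factors. Of the 39, 16 had a log2 fold change above 0 in crl1, 23 at 2 h and 23 at 4 h. DREB2A, which lies upstream of HSFA3 in Arabidopsis, had 17.7 and 20.1 in crl1 and 17.9 and 15.8 in wild type at 4 h, against 10.5 and 15.4 in crl1 and 18.6 and 16.6 in wild type at 0 h. At 2 h DREB2A had 22.6 and 14.5 in crl1 and 23.4 and 33.4 in wild type, and its log2 fold changes were 0.26 at 4 h and 0.59 at 2 h (limma adjusted p = 0.857 and 0.763). BIP1, the HSP70 of the endoplasmic reticulum, had log2 fold changes of -0.10 in crl1, 0.29 at 2 h and 0.02 at 4 h. CLPB-C, a plastid relative of HSP101, had 0.07, -0.13 and -0.14. OsPDIL1-3, a protein disulfide isomerase, had the lowest adjusted p of the list, 0.0963 in crl1 against wild type at a log2 fold change of -0.90 ± 0.24 SE. Its signals were 10.1 to 13.8 in crl1, around background, against 16.1 to 27.8 in wild type. The summed signal of the list was 48196 on wild type 2 h repetition 2, against 29643 to 40379 on the other 11 arrays.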

How the data were processed

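RNA of 12 samples was hybridised to 1-colour Affymetrix rice arrays. Per the submitters' processing notes, the authors used Affymetrix Expression Console, of unstated version, to give each probe set a MAS5 intensity on a linear scale. No detection calls or scanner files were used here. The log2 of these signals was analysed without rescaling. Probe sets for rice that exceeded their array's median on at least 2 of 12 arrays were kept (32524 of 57194). A limma model (version 3.58.1, R 4.3.3, lmFit and eBayes with a trend on intensity) gave each of the 6 groups a mean, with 6 residual degrees of freedom and 12 comparisons. P-values are two-sided, adjusted by the Benjamini-Hochberg method over all kept probe sets within a comparison, with a threshold of 0.05. SE is the moderated standard error of a log2 fold change. The fit was tested on simulated data. "All genes" means each gene's brightest probe set that matches no other gene.

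Gene names, synonyms and gene order came from a table of assembly ASM3414082v1 and GEO's platform annotation, and no coordinates or sequences were used. Named were members past the threshold, the 3 brightest and the 3 with the largest fitted difference per class and comparison, and a fixed list (HSP101, HSFA2A, HSFA2C, HSFB2B). Other members named were chosen after their values were seen. Members and lists were chosen with earlier results of these data known, and the marker and chaperone lists were trimmed once gene names had been read. Replicate numbers mark the 2 independent repetitions in the labels. Same-numbered arrays' deviations from group means correlated at 0.00776 to 0.249 over all kept probe sets and at -0.113 to 0.579 over those with a mean signal of at least 100 (15 pairs of groups), and a fit with repetition as a block is given where it changed a call. Where a gene has several probe sets of its own (14 members), those that differ by 0.5 log2 units or more are given. This was checked only in crl1 against wild type over all times and in 2 h and 4 h against 0 h, both genotypes together. Alternatives were quantile normalization, centring each array on its median, a pseudocount of 16, other filters, the compared groups alone, array weights, the block, leaving out each array and, for class medians, the mean over a gene's probe sets.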

Additional observations from a re-analysis of the deposited data

How the results depend on the processing

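With 2 arrays per group, the number of arrays limits every value, and signals near background carry no order. Of the counts of called members and class medians under the alternatives, 366 kept their value within limits and 28 moved. In the fits with repetition as a block (the pairing of same-numbered arrays), 3 members passed for crl1 against wild type over all times, 2 for 4 h against 0 h in both genotypes and 1 for 4 h against 0 h in wild type, and the block changed no other count. At 4 h against 0 h, 0 members passed when each array was centred on its median, without the filter, and with the filter at the 75th percentile, where HSFA3 was not tested. Leaving out 1 array at a time gave 0 to 6 called members for crl1 against wild type over all times, 0 to 6 at 2 h, 0 to 1 for 2 h against 0 h, 0 to 1 for 4 h against 0 h, and 0 to 4 for 2 h against 0 h in wild type. The highest of these, except at 4 h, came without wild type 2 h repetition 1, where the lone array is assumed to vary like the other groups. The median of factors in crl1 moved to -0.22 with centring and to -0.027 without wild type 2 h repetition 2. At 2 h it was -0.10 with centring, -0.036 with the 75th percentile filter and -0.018 to 0.18 with 1 array left out. At 4 h it was 0.014 with centring and 0.030 with that filter. Among named members, 8 log2 fold changes turned sign, all with 1 array left out and none past the threshold in any of these fits. In crl1 against wild type the fits with 1 array left out ran from -0.28 to 0.0078 for HSP18.8 and from -0.021 to 0.22 for HSFB1, each turning without crl1 0 h repetition 1. HSP81-3 ran from -0.43 to 0.0026, turning without wild type 2 h repetition 2. HSP81-1 ran from -0.29 to 0.16, with 0.16, 0.011 and 0.059 without wild type 2 h repetition 2, crl1 2 h repetition 1 or wild type 4 h repetition 2. At 2 h HSP81-1 ran from -0.10 to 0.57 and HSP101 from -0.13 to 0.91, both turning without wild type 2 h repetition 2. For single genes, 661 other values kept their call and direction, 9 became called and 12 lost a call or strength. The cause was not tested in any of these. Over all times no separate fit of the compared groups alone exists for crl1 against wild type.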

Other observations

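Marker lists of the stem base not described with the heat shock genes had these values. Of the crown root primordium markers, OsWOX11 rose at 2 h against 0 h (log2 fold change 2.09 ± 0.18 SE, limma adjusted p = 0.00124), while QHB had 0.24 ± 0.40 SE (adjusted p = 0.933). At 4 h against 0 h they had -0.48 and 0.71 (adjusted p = 0.458 and 0.664). Their summed signal was 1903 to 2319 in crl1 and 1135 to 1669 in wild type at 2 h, against 368 to 419 in crl1 and 375 to 469 in wild type at 0 h. Of 11 markers of dividing cells, 0 passed the limma test in crl1 against wild type over all times, or in 2 h or 4 h against 0 h with both genotypes together, and 0 had an unadjusted p under 0.05 there. In crl1 against wild type at 2 h alone all 11 were below 0, with 0 past the limma test (lowest adjusted p = 0.374) and 5 at an unadjusted p under 0.05. Their summed signal at 2 h was 6383 to 7426 in crl1 against 8051 to 13511 in wild type, where the 13511 is repetition 2, the array that stood apart. The shoot apex markers OSH1 and HOX1 passed in none of the 3 pooled comparisons, and 1 of them had an unadjusted p under 0.05 at 2 h and 1 at 4 h.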
